A study of Homo sapiens with 12 samples.

Results

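The 10 functional globin genes of the human alpha and beta clusters were located in maps of nucleolus-associated domains, or NADs, which are the chromosomal segments recovered with purified nucleoli. The members were the alpha-type genes HBZ, HBM, HBA2, HBA1 and HBQ1 on the short arm of chromosome 16 and the beta-type genes HBB, HBD, HBG1, HBG2 and HBE1 on the short arm of chromosome 11. They were taken by name from the RefSeq annotation of GRCh38.p14, 10 of 19821 protein-coding genes on the 23 chromosomes analysed, and the rule itself uses no NAD value. Each cluster was also examined with 300 kb of flanking sequence on each side.

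The maps came from H9 cells, an established human embryonic stem cell line, grown without further treatment as naive cells in RSeT medium or as primed cells in mTeSR medium. Nucleolar DNA and whole-cell DNA were sequenced from each state in 3 replicates, 12 libraries in 4 groups. All 6 libraries of a state are tied by the labels to 1 list of regions, so no value below has an error across cultures, no comparison of the states could be tested, and read depth is unknown. The identity of the naive and primed states was not tested, because the files hold genomic regions and no expression. Every region limit near the globin genes lies on a 10 kb grid, several times the length of a globin gene (721 to 1860 bp), so a gene here is inside or outside a 10 kb bin and seldom divided.

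Hemoglobin is built from alpha-type and beta-type chains, and each cluster carries its main genes in the order of their use in development. In the beta cluster this order is embryonic, then fetal, then adult. In the alpha cluster it is embryonic, then the genes used in both fetal and adult life. In erythroid cells distant enhancers drive the globin genes. For the alpha genes they lie within the neighbouring gene NPRL3, and for the beta genes in a locus control region beyond HBE1. Embryonic stem cells are not erythroid and the globin genes are not known to be active there. The clusters are a textbook contrast: the alpha genes lie near a telomere among widely expressed genes in CpG-rich sequence, and the beta genes lie among olfactory receptor genes in AT-rich sequence. NADs in general are known to hold mainly silent chromatin. A call here is not a measure of silence, because no expression was available. Naive NADs touched 76.8% and primed NADs 81.8% of all coding genes.

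The difference in base composition can be read from the promoters of HBM and HBD, the members whose promoters were held in the RefSeq table of GRCh38.p14. No other member had a promoter there, so these 2 were not chosen for their calls. They come from the opposite clusters and from bins called differently. The HBM promoter lay in a primed NAD and in no naive NAD, and the HBD promoter lay in NADs of both states. The HBM promoter is given at chr16:165728-165977 on the plus strand and the HBD promoter at chr11:5234484-5234733 on the minus strand, each the 250 bases before the annotated start, 5′ to 3′. Capitals mark matches on either strand. The letters searched were GATAA, the core bound by GATA factors, then the CCAAT box, then CACCC, the core bound by KLF1, and as forms of the TATA box the letters TATAA or, in a longer variant, ATAAAA. A run of TATAAAA would match both of the last motifs.
HBM: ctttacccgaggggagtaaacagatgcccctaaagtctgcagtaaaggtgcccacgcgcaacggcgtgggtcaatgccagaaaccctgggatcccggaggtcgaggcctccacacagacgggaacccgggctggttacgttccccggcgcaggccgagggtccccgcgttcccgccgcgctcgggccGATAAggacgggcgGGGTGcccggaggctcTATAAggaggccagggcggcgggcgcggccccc
HBD: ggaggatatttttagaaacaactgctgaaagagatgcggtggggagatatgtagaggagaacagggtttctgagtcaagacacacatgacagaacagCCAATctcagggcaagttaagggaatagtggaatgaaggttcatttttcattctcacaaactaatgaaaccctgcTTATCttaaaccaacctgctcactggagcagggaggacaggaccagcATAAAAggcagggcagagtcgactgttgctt
GATAA matched 63 bases before the start of HBM and, on the opposite strand, 78 bases before that of HBD. CACCC was matched in HBM alone, on the opposite strand (49 bases before the start), and CCAAT in HBD alone (153 bases before it). TATAA lay 33 bases before the start of HBM and ATAAAA 31 bases before that of HBD. Among all 35116 promoter entries of the table, cut to the same 250 bases, 20.4% held GATAA, 32.0% CCAAT, 54.7% CACCC, 18.9% TATAA and 14.8% ATAAAA. These matches are descriptions of letters, not of bound sites. The HBM promoter had 69.2% G or C and 27 CpG dinucleotides, and the HBD promoter 45.2% and 2. Their neighbourhoods differed in the same way: the 18 promoter entries in the alpha window had a median of 70.4% G or C and 27.5 CpGs, the 9 in the beta window 40% and 1, and all entries 58% and 11.

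Of the 10 globin genes, 3 lay in naive NADs and 8 in primed NADs. The 3 were HBA2, HBA1 and HBD, and all of them were in primed NADs as well. HBZ, HBM, HBG1, HBG2 and HBE1 lay in primed NADs and in no naive NAD, HBB and HBQ1 lay in neither, and no member was in naive NADs without being in primed ones. Among all coding genes a naive NAD touched 76.8% and a primed NAD 81.8%, with 65.2% in both, 11.6% in naive NADs alone, 16.6% in primed NADs alone and 6.57% in neither. When at least 50% of the gene body had to be covered, the members still numbered 3 in naive and 8 in primed NADs, beside 34.7% and 61.2% of all coding genes. Coding genes no longer than the longest globin gene, 1117 in number, are the closer measure, because a long gene meets a region more easily: 54.1% of them were touched by a naive NAD and 72.3% by a primed NAD. Among these short genes 42.9% lay in both, 11.2% in naive NADs alone, 29.5% in primed NADs alone and 16.5% in neither. With at least 50% of the body covered, naive NADs held 51.2% of the short genes and primed NADs 71.4%. The primed count of the globin genes was thus near the background of short genes. The naive count was below that background. The genes are not separate observations. They occupy 9 bins, of which 2 were in naive and 7 in primed NADs, where the lists covered 40.2% and 45.5% of the sequence of all chromosomes analysed. The 7 bins belong to no more than 2 primed regions.

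**Figure D1:**
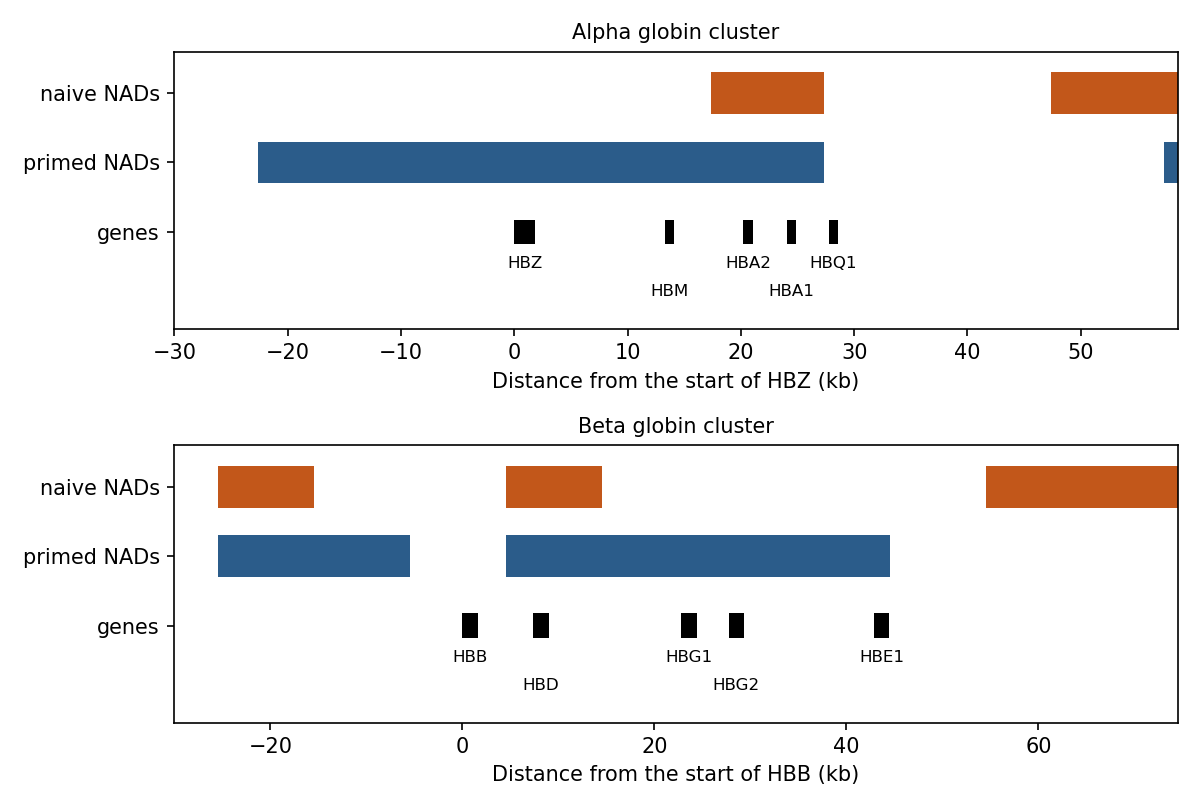
Naive (upper bars) and primed (lower bars) NADs over the alpha and beta globin genes (black), against distance in kb from the start of HBZ or HBB. In each cluster 1 naive region of 10 kb and 1 longer primed region (50 kb over the alpha genes, 40 kb over the beta genes) meet the members, and HBQ1 and HBB lie outside both.

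Within the alpha cluster, which spans 28.5 kb from HBZ to HBQ1 (chromosome 16, 152644 to 181179), the naive call differed between HBZ and HBA1 and the primed call did not. HBZ encodes the embryonic zeta chain (152644 to 154503) and had 0% of its body in naive NADs and 100% in primed NADs. Its nearest naive region began 15498 bp away. HBM encodes the minor mu chain (165978 to 166764) and was likewise at 0% naive and 100% primed, with the nearest naive region 3237 bp away. HBA2 (172876 to 173710) and HBA1 (176680 to 177522), which encode the alpha chain of fetal and adult hemoglobin, were at 100% in both lists.

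Over all chromosomes the naive list held 61750 regions covering 1171 Mb and the primed list 29994 regions covering 1327 Mb. Naive regions were thus shorter on average in the whole lists, not only at the globin genes. The alpha genes in naive NADs shared a region of a single bin, 170001 to 180000. The primed region over them ran 50 kb, from 130001 to 180000, and began inside NPRL3. Both regions ended at the same grid line, 2478 bp beyond HBA1 and 459 bp before HBQ1, which encodes the theta chain (180459 to 181179) and was at 0% in both lists. A distance of 459 bp is far below the grid, so the separation of HBQ1 from HBA1 rests on the call of 1 bin. HBA1 and HBA2 are near-identical copies, and reads from them cannot always be placed on the right copy. Here they lie in the same bin, and an effect of read placement on its call was not tested.

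The beta cluster, 44.5 kb from HBB to HBE1 (chromosome 11, 5225464 to 5269945), showed a similar layout with the adult genes divided. HBB encodes the adult beta chain (5225464 to 5227071) and was at 0% in both lists, with the nearest region of each list 2930 bp away. HBD encodes the delta chain of a minor adult hemoglobin (5232838 to 5234483) and was at 100% in both. The naive region over HBD was again 1 bin, 5230001 to 5240000.

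The primed region that held HBD ran 40 kb, 5230001 to 5270000, and took in all the remaining beta genes. HBG1 (5248269 to 5249857) and HBG2 (5253188 to 5254781), which encode the fetal gamma chains, were at 0% in naive and 100% in primed NADs, 8269 and 13188 bp from the nearest naive region. HBE1, the embryonic epsilon gene (5268345 to 5269945), was also at 0% and 100%, and the primed region ended 55 bp beyond it. HBG1 and HBG2 are close copies too, in neighbouring bins that had the same call in each list. Grouped by stage, naive NADs held 0 of the 2 embryonic genes (HBZ, HBE1) and 0 of the 2 fetal gamma genes, and primed NADs held all 4. Of the 4 genes that serve adult hemoglobin (HBA1, HBA2, HBB, HBD), the same 3 lay in NADs of both states. HBA1 and HBA2 share a bin and serve fetal hemoglobin too, so these counts do not separate the stages fully. Among the short coding genes, 54.1% were touched by a naive NAD and 72.3% by a primed NAD. With regions of at least 20 kb only, naive NADs held 0 globin genes of any stage. A dependence on stage was not tested.

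The non-coding members of the clusters followed their neighbours. The pseudogenes HBZP1 and HBAP1 in the alpha cluster, and the pseudogene HBBP1 and the non-coding RNA gene BGLT3 in the beta cluster, were all at 0% in naive and 100% in primed NADs. Over the whole cluster sequence, 35.0% of the alpha cluster and 22.5% of the beta cluster lay in naive NADs, against 95.9% and 89.8% in primed NADs. In both clusters the naive sequence, 10 kb each, lay wholly inside the primed region.

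The stretches on the sides of the beta cluster differed. Between HBE1 and the olfactory receptor gene OR51B4, the side on which the locus control region is known to lie, 31.1 kb separate the genes (5269946 to 5301013). Of this stretch, 67.6% was in naive NADs and 3.44% in primed NADs, and 20 kb was in naive NADs alone. This direction was the reverse of that in the cluster, and the boundary of primed coverage at HBE1 faced a naive region (5280001 to 5310000) across 1 bin that was in neither list. On the other side, between OR51V1 and HBB, 37.6% of 24.8 kb lay in naive and 78.0% in primed NADs, the same direction as in the cluster.

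At the alpha cluster the corresponding distant enhancers lie within NPRL3, a subunit gene of the GATOR1 complex that restrains mTORC1 (85386 to 138673). Its body was 18.8% in naive and 43.7% in primed NADs. Primed regions covered its ends and left 30 kb of it (100001 to 130000) that neither list touched. All 13.97 kb between NPRL3 and HBZ were in a primed NAD and none in a naive NAD. Beyond HBQ1, the 7.81 kb up to LUC7L, a splicing factor gene, lay in neither. No coordinates of the enhancers were used here, so the calls are those of the surrounding stretches.

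**Figure D2:**
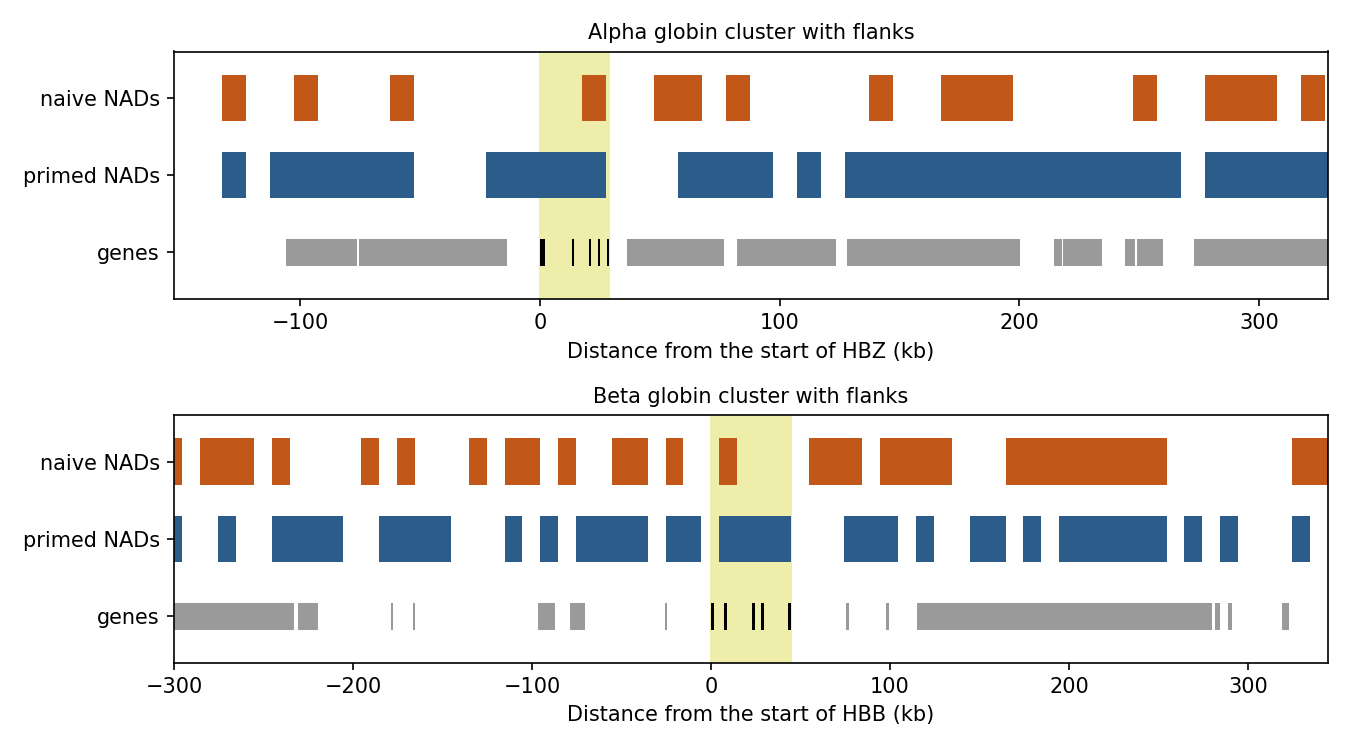
Naive (upper bars) and primed (lower bars) NADs across the clusters with their flanks, with globin genes in black, other protein-coding genes in grey and the cluster shaded, against distance in kb from the start of HBZ or HBB. In the alpha window primed regions fill 75.1% of the sequence and hold 150 of the 160 kb in naive regions. In the beta window the regions of the lists interleave, with a median of 20 kb in each list. The longest there are 100 kb (naive) and 60 kb (primed).

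In the flanks the clusters differed. The alpha window ends at the chromosome start, so its flank before HBZ is 153 kb long and the window is 481 kb. Naive NADs covered 33.3% of it and primed NADs 75.1%, a difference of -41.8 percentage points (naive minus primed). Of the 160 kb in naive NADs, 150 kb lay in primed NADs too. The window held 11 naive regions, 8 of them 1 bin long and none over 30 kb, and 7 primed regions with a median of 50 kb and a longest of 190 kb. The difference was similar on both sides, -41.0 points before the cluster and -40.4 points after it. Chromosome 16 as a whole had 47.3% of its sequence in naive and 80.9% in primed NADs, so the alpha window lay below its chromosome in both lists. With a flank of 1 Mb the window was 39.0% naive, still below the chromosome, and 86.5% primed, above it.

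The beta window of 644 kb was 50.3% naive and 58.1% primed, a difference of -7.77 points. Here 195 kb was in both lists, 129.9 kb in naive NADs alone and 180 kb in primed NADs alone. Its 15 naive and 17 primed regions had the same median length, 20 kb. The longest naive region, of 100 kb, crossed the window edge, and another was 90 kb long. The longest primed region was 60 kb. The side of HBB was 44.8% naive and 58.2% primed, and the side of HBE1 59.98% naive and 53.4% primed, which turned the difference to 6.63 points. The cluster itself was at -67.3 points, but it spans few bins and its pattern was not particular to it. In the flank on the side of HBB, the primed regions at 4980001 to 5020000 and at 5040001 to 5080000 were also 40 kb long and each held 1 naive bin. Chromosome 11 as a whole was 38.6% naive and 42.6% primed, so the beta window lay above its chromosome in both lists.

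For comparison, the chromosomes were divided into windows of the same size. Among 6046 windows of 480 kb the median was 37.5% in naive NADs (quartiles 29.2 and 50%) and 41.7% in primed NADs (6.25 and 83.3%). Among 4529 windows of 640 kb it was 37.5% (29.7 and 48.4%) and 40.6% (6.25 and 84.4%). The alpha window lay between the quartiles in both lists. The beta window lay between them in primed NADs and above the upper quartile in naive NADs. The difference of the alpha window was below the lower quartile of -33.3 points, and that of the beta window near the median of -4.69 points. The clusters themselves are far shorter than these windows and were not placed among them.

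**Figure D3:**
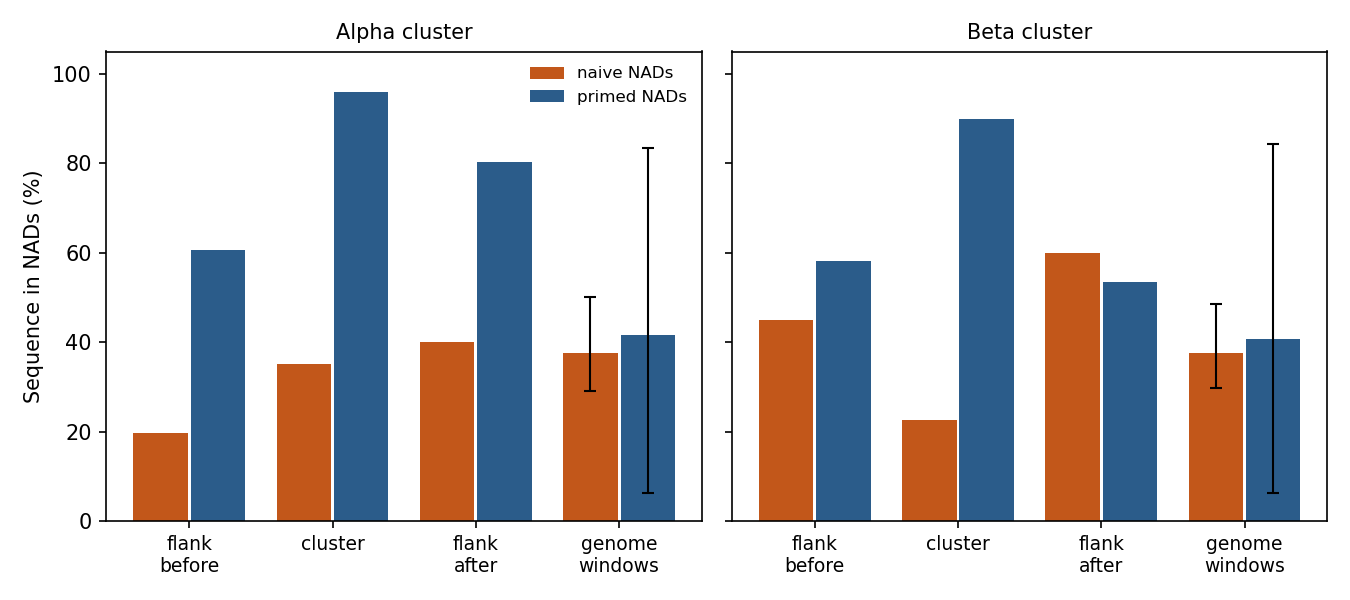
Share of sequence in naive (left bars) and primed (right bars) NADs, in percent, for the flank before each cluster, the cluster and the flank after it, with the median of genome windows of the size of the whole stretch (error bars, quartiles). The primed share exceeds the naive share throughout the alpha panel, and in the beta panel the cluster, which is far shorter than its flanks of 300 kb, is 22.5% naive and 89.8% primed.

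The neighbours of the alpha genes serve repair, transcription, splicing and signalling among other roles, and all 16 of them were in primed NADs. Naive NADs held 10 of the 16. Among all coding genes primed NADs touched 81.8% and naive NADs 76.8%. MPG, a DNA glycosylase of base excision repair, was at 0% in naive and 100% in primed NADs, as were ARHGDIG, PDIA2, a protein disulfide isomerase, MRPL28, a mitochondrial ribosomal protein gene, and PGAP6. RGS11, a regulator of G protein signalling, was at 0% and 22.2%. The neighbours in both lists were POLR3K, an RNA polymerase III subunit gene (50.1% naive, 100% primed), SNRNP25 (100% in both), RHBDF1 (10.6% and 100%), NPRL3, LUC7L (49.4% and 48.1%), FAM234A (14.7% and 71.5%), AXIN1, a scaffold of the beta-catenin destruction complex (61.3% and 100%), NME4 (18.7% and 100%), DECR2 (76.6% and 100%) and RAB11FIP3 (61.6% and 95.5%).

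Around the beta genes, 15 of 21 coding neighbours lay in naive and 16 in primed NADs. Of these neighbours, 18 are class I olfactory receptor genes, and 14 of the 18 were in naive and 14 in primed NADs, 12 of them in both. OR51A4 and OR51B6 were at 100% in naive and 0% in primed NADs, and OR51L1 and OR52J3 the reverse. OR52D1 and OR52H1 were in neither. The receptors nearest to the globin genes, OR51V1 beside HBB and OR51B4 beyond HBE1, were in both lists (71.9% each for OR51V1 and 100% each for OR51B4). Among the neighbours that are not receptors, MMP26, a matrix metalloproteinase gene, was in both and UBQLNL in primed NADs alone. Receptors flanking the beta genes were thus as often in naive as in primed NADs, while the globin genes between them numbered 1 of 5 in naive and 4 of 5 in primed NADs. The difference between these groups was not tested.

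**Figure D4:**
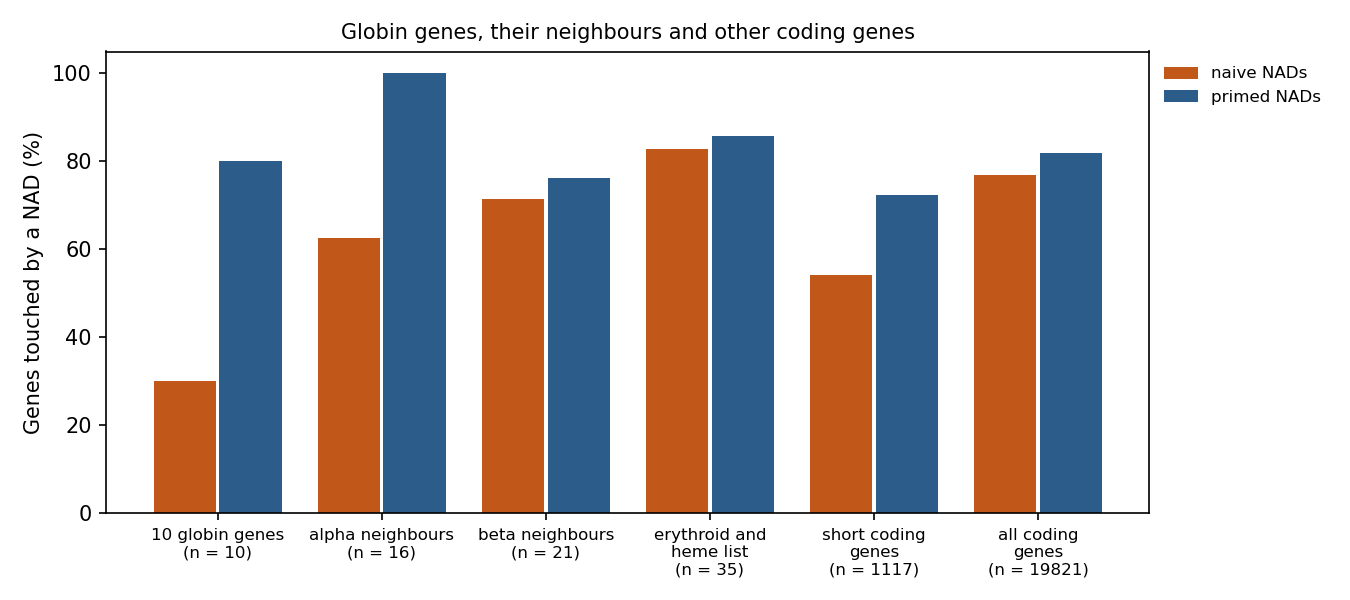
Percent of genes touched by a naive (left bars) or primed (right bars) NAD among the 10 globin genes, the other coding genes of each window, the erythroid and heme list, the 1117 coding genes no longer than the longest globin gene, and all 19821 coding genes. The 3 of 10 globin genes in naive NADs form the lowest bar.

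Genes that act with the globins in red cells were examined as a list of 35, which was written with earlier results of these data known. Of these, 29 lay in naive and 30 in primed NADs, close to the 76.8% and 81.8% of all coding genes. NADs of both states held 27, beside 65.2% of all coding genes. The list was not matched for length and includes long genes such as SOX6 (772029 bp), which meet a region more easily. The median member had 44.8% of its body in naive and 58.8% in primed NADs, beside 35.6% and 75.8% for all coding genes. Among the 14 transcription factors, 12 were in naive and 13 in primed NADs, beside the same 76.8% and 81.8%. KLF1, the activator of the adult beta gene, was at 0% in naive and 100% in primed NADs, as was SPI1, a myeloid factor that opposes GATA1. MYB, a factor of blood progenitors, went the other way, with 47.2% in naive and 0% in primed NADs. GATA1 itself was at 100% in both. BCL11A and ZBTB7A, the repressors of the gamma genes, were in both lists at 38.7% and 28.4% in naive and 70.99% and 100% in primed NADs.

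Of 8 heme synthesis enzyme genes, 6 were in naive and 7 in primed NADs, beside 76.8% and 81.8% of all coding genes. PPOX was at 0% naive and 34.8% primed, and ALAD lay in neither. ALAS2, the first and rate-limiting enzyme of heme synthesis in erythroid cells, was at 49.9% naive and 100% primed. Of 13 genes of red cell membrane and other proteins, 11 were in naive and 10 in primed NADs, beside the same shares. AHSP, which stabilises free alpha chains, was at 100% in both. HEMGN, an erythroid nuclear protein gene, was at 100% in naive and 0% in primed NADs. Of the globins outside the clusters, which are longer genes, the myoglobin gene MB was at 100% in both lists, the cytoglobin gene CYGB at 41.9% naive and 46.95% primed, and the neuroglobin gene NGB at 21.1% naive and 0% primed.

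The coding genes most like HBA1 and HBB were found on other chromosomes by the distance over 4 values: the naive and primed shares of the gene body, and of the body with 300 kb on each side. HBA1 had 33.0% naive and 74.9% primed in the wider stretch. Nearest to it were ASCL2, a homolog of achaete-scute on chromosome 11 (distance 0.330 percentage points), NICOL1 on chromosome 4 (0.552) and LOC124902704 on chromosome 11 (0.831). HBB had 50.6% and 60.6% in the wider stretch, and its nearest were the histone genes H1-5 (2.21) and H2AC16 (2.23) on chromosome 6, which share nearly all of that stretch, and COPS8 on chromosome 2 (3.49). The distance rests on 2 lists only.

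The naive count turned with the treatment of short regions. Without regions of 1 bin, naive NADs held 0 globin genes and primed NADs 8 (beside 52.2% and 69.7% of all coding genes). With regions up to 50 kb apart joined, they held 8 and 10 (beside 88.7% and 85.4%). These shares are of coding genes of every length (median 24482 bp), and a long gene meets a region more easily. Shares of the short coding genes were not computed at these settings.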

How the data were processed

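For each state the authors deposited a table of region coordinates on hg38, without scores. The submitters' processing notes list BWA, SICER and SAMtools 1.10, with no role for any. Calling settings, the pooling of the 3 replicates and the depth are not stated. A check of both tables found every limit on multiples of 10 kb, chromosome ends excepted. Per the labels' protocols, libraries were PCR-free with 350 bp fragments read as 150 bp pairs.

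RefSeq genes of GRCh38.p14 were used, without 679 that carry scaffold coordinates. A gene was in a NAD when at least 1 base of its body overlapped a region. Chromosome shares and genome windows leave out stretches of 500 kb or more with no region and no gene. Starts are 1-based. Overlap routines were tested on simulated data. Python 3.11.15, numpy 2.4.6, pandas 2.3.3, scipy 1.17.1 and matplotlib 3.10.9 were used.

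No test was run, since each state has 1 list. The members and gene lists were chosen with earlier results of these data known. All members, the coding genes of the windows, the other globins, and of the erythroid list those in 1 list or neither are named by rule, apart from a few that are not reported here; GATA1, BCL11A, ZBTB7A, ALAS2 and AHSP were added after their values were seen. Alternatives were joined, length-filtered or wider features and other flanks.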

Additional observations from a re-analysis of the deposited data

How the results depend on the processing

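No paired analysis was possible because each state has 1 list and the lists carry no replicates, so no replicate could be left out either. With regions up to 50 kb apart joined, naive NADs held 8 globin genes, and the shares were 81.3% naive and 95.8% primed in the alpha window and 89.1% naive and 100% primed in the beta window. With regions of at least 20 kb, naive NADs held 0 globin genes and 16.6% of the alpha window. With regions of at least 100 kb, both lists held 0 globin genes (beside 1.85% of all coding genes in naive and 37.6% in primed NADs); the alpha window was 0% naive and 39.7% primed and the beta window 0.704% naive and 0% primed. Widening each gene by 10 kb put 7 globin genes in naive NADs and 10 in primed NADs (beside 89.8% and 86.7% of all coding genes). For the joined, filtered and widened settings no shares of the short coding genes were computed. Most coding genes are far longer than a globin gene. When 50% of the body had to be covered, the globin counts were 3 naive and 8 primed as before. At this setting 15 of the 35 erythroid genes were in naive and 20 in primed NADs. Of all coding genes, naive NADs then held 34.7% and primed NADs 61.2%. Of the short coding genes they held 51.2% and 71.4%. A flank of 1 Mb gave 86.5% primed in the alpha window. The other 20 values stayed within 1.5 times for counts, or within the exact 95% binomial interval over 10 kb bins for shares. That interval treats neighbouring bins as independent, although regions here span many bins. It served as a fixed limit and measures no error. The naive count and share were below the primed ones in each of these settings, except at 100 kb, where the globin counts were equal and the beta share was higher in naive NADs, and except for the erythroid list with regions joined (33 naive and 32 primed). By construction, joining regions can only add sequence and a length filter can only remove it. No cause of the shifts was tested. Depth and calling settings, which are unknown, limit every statement about an uncalled bin.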

Other observations

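HBB and HBQ1, the members in neither list, lay in gaps of different size. HBB was in a gap of 20 kb in the naive list and of 10 kb in the primed list, so that 1 uncalled bin separated it from primed NADs on both sides. Of 29971 gaps in the primed list, 46.2% were of this length, and 143 coding genes lay wholly inside such gaps. HBQ1 was in a gap of 20 kb in the naive list and of 30 kb in the primed list. Gaps of 20 kb made up 21.7% of 61727 naive gaps and gaps of 30 kb 9.69% of primed gaps. With regions up to 50 kb apart joined, HBB and HBQ1 were in both lists, and HBZ and HBM remained outside the joined naive regions.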
